A study of Mus musculus with 8 samples.

Results

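Neogenin (Neo1), its ligands and the other netrin receptors were examined in cells sorted from the growing root tip of mouse molars. The set holds 10 genes of the 56748 in the count table: the receptors Neo1 and Dcc, the repulsive guidance molecules Rgma and Rgmb, the netrins Ntn1 and Ntn4, and the UNC5 receptors Unc5a, Unc5b, Unc5c and Unc5d. Neo1 was chosen by its measured level, which was higher in the knockout libraries, so its group difference is given as a description with no test. The other 9 genes were taken as family members, with earlier results of these data already known. RNA was measured by bulk sequencing of tdTomato-positive cells from lower-jaw molars at postnatal day 10, after a tamoxifen pulse at day 3. The labels call them CXCL12-positive apical papilla cells, taken from dental pulp, although the protocol text also speaks of dental follicle cells. The cKO group (4 libraries) is labelled Ctnnb1(-/-), with both copies of the beta-catenin gene deleted. The cHet group (4 libraries) is labelled Ctnnb1(+/-) and is the control, so every library carries at least 1 deleted copy and there was no wild type. Neither the driver of recombination nor any pooling of animals is named in the sources used here.

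Neogenin and DCC are related transmembrane receptors of the immunoglobulin superfamily. Both bind netrins, secreted laminin-like proteins that attract or repel growing axons and migrating cells, and UNC5 receptors turn a netrin signal towards repulsion. Neogenin also binds the RGM proteins, which are anchored to the cell surface and act as BMP co-receptors. UNC5 receptors are known as dependence receptors, which can start cell death when no ligand is bound.

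The table of RefSeq promoter sequences (build GRCm38.p6) held entries for 6 of the 10 genes. The 250 bases before the annotated start are shown for Neo1 and for Unc5c, the gene with an entry whose level followed that of Neo1 most closely within groups, as described further on. Capitals mark GGCGCC, a GC-rich element known to be bound by BMP-activated Smads. Neo1 lies on chromosome 9, minus strand (chr9:59036442-59036691), and Unc5c on chromosome 3, plus strand (chr3:141465314-141465563).
Neo1: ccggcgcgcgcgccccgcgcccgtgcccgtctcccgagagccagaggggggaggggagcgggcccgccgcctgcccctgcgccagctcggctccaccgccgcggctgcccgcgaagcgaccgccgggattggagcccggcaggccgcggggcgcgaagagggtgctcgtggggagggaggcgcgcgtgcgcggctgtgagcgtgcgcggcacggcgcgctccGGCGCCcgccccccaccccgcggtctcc
Unc5c: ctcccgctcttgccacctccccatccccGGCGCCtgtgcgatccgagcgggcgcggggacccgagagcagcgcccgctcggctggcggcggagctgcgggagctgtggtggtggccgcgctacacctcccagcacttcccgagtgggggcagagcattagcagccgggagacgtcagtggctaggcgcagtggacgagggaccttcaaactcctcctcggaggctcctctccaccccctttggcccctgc
Each sequence held 1 match to GGCGCC, which reads the same on both strands, and 9.59% of 32817 promoter windows of the same length held at least 1. Over the 6 genes it stood in 4 of 8 windows, the others being those of Unc5a and of 1 of 3 Rgmb starts, and in none of Ntn4 or Unc5b. The match began 28 bases before the start in Neo1 and 222 bases before it in Unc5c. The TCF/LEF element, the site through which beta-catenin is known to act, was searched on both strands in 4 spellings. These were CTTTGAA, the spelling CTTTGAT, the spelling CTTTGTA and, as the last of them, CTTTGTT. None of the 8 windows of the 6 genes held it, against 14.8% of all windows. The Neo1 window was 83.2% G and C and the Unc5c window 71.2%. The shares over all windows were not matched for G and C content, and windows of Rgmb overlapped in part. A match is a run of letters and not a shown binding site, and the absence of a match concerns these 250 bases alone.

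Libraries held 44444033 to 50051392 counts each. The targeted gene Ctnnb1 stood at 229 to 313 TMM-scaled CPM (counts scaled to a common library size) in cKO libraries and 209 to 304 CPM in cHet libraries. Whole-gene counts include exons outside a deletion, so these levels do not check the labels. Dental papilla and pulp markers were counted in every library (10 of 10 genes), and their CPM summed to 2730 to 5050 in cKO against 483 to 1300 in cHet. Sums of 12 general mesenchyme markers were 13700 to 26900 in cKO and 3780 to 12200 in cHet. Igfbp5, Smoc2 and Cxcl12 had the largest means of the papilla list (1320, 1090 and 826 CPM in cKO, 276, 241 and 149 in cHet). Tac1 of that list had a lower mean in cKO (8.53 CPM against 26.8 in cHet). So did Lum (479 against 757) and Dcn (167 against 343) of the mesenchyme list. All other genes of both lists had higher means in cKO. Markers of olfactory neurons, a cell type the sort does not name, were also counted in every library (10 of 10 genes), with sums of 4460 to 5630 CPM in cKO and 5120 to 9170 in cHet. Dental epithelium sums were 4610 to 8220 in cKO and 2500 to 10900 in cHet. Neutrophil marker sums were 23.7 to 1290 in cKO and 50.9 to 18400 in cHet, the highest in cHet12, and 4 of the 7 neutrophil genes were at 0 in some library. Log2 levels correlated at 0.882 to 0.942 within groups and 0.858 to 0.943 across them. In bulk samples, fewer cells of a type and less RNA per cell cannot be told apart.

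Among the receptors, Neo1 and Unc5d stood higher in cKO than in cHet in every library, while Unc5b and Unc5c overlapped between the groups. Among the ligands, Rgma, Rgmb, Ntn1 and Ntn4 all overlapped. Neo1, chosen for its rise, is left out of the counts that follow. Of the other 9 genes, 1 was called higher in cKO (Unc5d) and 0 lower in the edgeR quasi-likelihood test, at a Benjamini-Hochberg adjusted p under 0.05 over 21508 tested genes. In that fit 1.08% of tested genes were called higher and 0.0558% lower. At an unadjusted p under 0.05 stood 2 of the 9 (Unc5c and Unc5d), where the share over all tested genes was 17.1%. The median log2 fold change (cKO over cHet) of the 9 was 0.05, beside −0.03 over all tested genes. Groups did not overlap, with cKO above, for 1 of the 9 genes and for 6.46% of tested genes. With cKO below, they did so for 0 of the 9 and for 3.68% of tested genes.

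**Figure D1:**
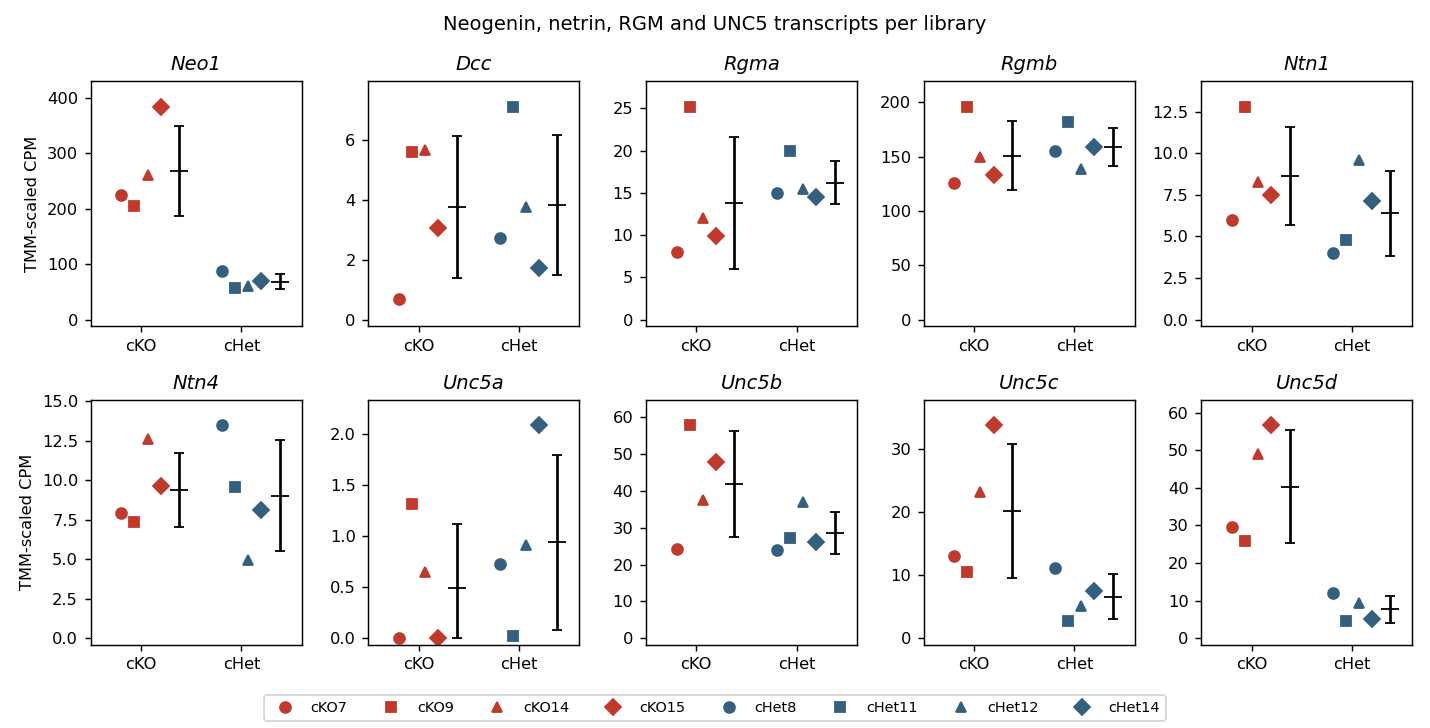
TMM-scaled CPM of each of the 10 genes, cKO libraries left of cHet libraries in each panel, 1 point a library, with bars for mean ± SD (n = 4 each, cut at 0 for Unc5a). All cKO points lie above all cHet points for Neo1 and Unc5d and not for the other 8 genes.

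Neo1 (ENSMUSG00000032340.9), the neogenin receptor, had 225, 204, 260 and 384 CPM in cKO7, cKO9, cKO14 and cKO15, against 87.0, 57.3, 60.5 and 69.0 CPM in cHet8, cHet11, cHet12 and cHet14. The lowest cKO library lay well above the highest cHet library. The means were 268 ± 80.7 CPM in cKO and 68.4 ± 13.3 CPM in cHet (SD, n = 4 each), a 3.92-fold difference, or 1.97 on the log2 scale. Within each library Neo1 ranked at the 95.8th to 98.4th percentile of tested genes in cKO and at the 79.6th to 86.7th in cHet, a rank that does not depend on how libraries are scaled. Leaving out single libraries moved its log2 value between 1.75 (without cKO15) and 2.11 (without cHet8). These fits reuse the values by which Neo1 was chosen and do not test its rise.

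Dcc (ENSMUSG00000060534.17), the classical attractive netrin receptor, was scarce. It had 0.691, 5.62, 5.67 and 3.06 CPM in cKO7, cKO9, cKO14 and cKO15, against 2.72, 7.13, 3.78 and 1.73 CPM in cHet8, cHet11, cHet12 and cHet14. These are 31 to 261 counts in cKO and 80 to 376 in cHet, and libraries of 1 group spread further apart than the group means. On the log2 scale the difference was −0.03 (SE 0.67, adjusted p = 0.989), and its 95% interval of −1.56 to 1.5 includes changes of either sign. Per kilobase of exon, Neo1 exceeded Dcc 54.9- to 492-fold in cKO libraries and 12.1- to 60.4-fold in cHet libraries.

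The RGM ligands did not follow Neo1. Rgmb (ENSMUSG00000048027.10), known as a BMP co-receptor of neural tissue, had 126, 196, 150 and 133 CPM in cKO7, cKO9, cKO14 and cKO15, against 155, 182, 139 and 159 CPM in cHet8, cHet11, cHet12 and cHet14. The groups overlapped over most of their range, with means of 151 ± 31.4 CPM in cKO and 159 ± 17.7 CPM in cHet (SD, n = 4 each). The log2 difference was −0.07 (SE 0.16, adjusted p = 0.867) with a 95% interval of −0.44 to 0.29, the narrowest of the 9 tested genes. Rgma (ENSMUSG00000070509.16), the family's founding repulsive cue in the visual system, had 8.03, 25.2, 12 and 9.90 CPM in the same cKO libraries, against 15.0, 20.0, 15.4 and 14.5 CPM in the cHet libraries. In 3 of 4 cKO libraries Rgma lay below every cHet library, and in cKO9 above them all. The log2 fold change was −0.23 (SE 0.36, adjusted p = 0.804, 95% interval −1.05 to 0.59) and was −0.70 without cKO9 (adjusted p = 0.125). An antisense gene shares 4.65% of Rgma's exon length, and strand was not marked, so reads there cannot be told apart. Both RGM genes were highest in cKO9 and cHet11, which were the libraries with the smallest mesenchyme sums of their groups (13700 and 3780 CPM). The third family member, hemojuvelin (Hjv), known from liver and muscle, had 12 counts in cKO7, 4 in cHet11 and 0 in the other 6 libraries, where 3 counts would be 0.0578 to 0.0706 CPM.

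Neogenin and its most abundant RGM ligand can be set against each other within a library, where scaling cancels. Per kilobase of exon, the ratio of Neo1 to Rgmb was 1.58, 0.918, 1.52 and 2.55 in cKO7, cKO9, cKO14 and cKO15, against 0.495, 0.277, 0.382 and 0.381 in cHet8, cHet11, cHet12 and cHet14. The receptor was thus the more abundant transcript in 3 of 4 cKO libraries and the less abundant in 4 of 4 cHet libraries. Rgmb overlapped between the groups, so the ratio mostly restates the rise by which Neo1 was chosen. Bulk libraries do not show whether both transcripts came from the same cells.

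Both netrins were expressed at low levels and overlapped between the groups. Ntn1 (ENSMUSG00000020902.13), the secreted guidance cue netrin-1, had 5.97, 12.8, 8.28 and 7.5 CPM in cKO7, cKO9, cKO14 and cKO15, against 4.01, 4.78, 9.62 and 7.10 CPM in cHet8, cHet11, cHet12 and cHet14. Only cKO9 lay above the highest cHet library. The log2 fold change was 0.44 (SE 0.36, adjusted p = 0.601), with a 95% interval of −0.39 to 1.27. Ntn4 (ENSMUSG00000020019.5), netrin-4, which is known as a component of basement membranes, had 7.91, 7.39, 12.6 and 9.62 CPM in the cKO libraries, against 13.5, 9.58, 4.95 and 8.14 CPM in the cHet libraries. The cHet range enclosed the cKO range, and the log2 fold change was 0.05 (SE 0.34, adjusted p = 0.959, 95% interval −0.71 to 0.82). Ntn4 was highest in cHet8 and cKO14, the same pair that had the largest dental epithelium sums (10900 and 8220 CPM), and the part of that tissue in its level was not tested.

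The UNC5 receptors differed among themselves. Unc5d (ENSMUSG00000063626.7), a receptor known to bind FLRT proteins as well as netrins, had 29.5, 25.8, 49.1 and 56.7 CPM in cKO7, cKO9, cKO14 and cKO15, against 11.9, 4.51, 9.32 and 5.03 CPM in cHet8, cHet11, cHet12 and cHet14. Every cKO library exceeded every cHet library. Unc5d averaged 40.3 ± 15.0 CPM in cKO and 7.68 ± 3.53 CPM in cHet (SD, n = 4 each). It rose 5.24-fold in cKO, or by 2.39 on the log2 scale (SE 0.40, adjusted p = 0.0399). The call held without cKO9 (adjusted p = 0.0253) or cHet8 (0.0429). It was lost without any one of cKO7, cKO14, cKO15, cHet11, cHet12 and cHet14, with log2 values of 2.18 to 2.68 over the 8 omissions and adjusted p of 0.089 to 0.147 where lost.

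Unc5c (ENSMUSG00000059921.16), a netrin receptor known from axon and cell migration, had 13.1, 10.5, 23.2 and 33.8 CPM in cKO7, cKO9, cKO14 and cKO15, against 11.2, 2.64, 5.10 and 7.47 CPM in cHet8, cHet11, cHet12 and cHet14. Of the cKO libraries 3 of 4 exceeded every cHet library, and cKO9 lay below cHet8. The log2 difference of 1.61 (SE 0.52, 95% interval 0.43 to 2.79) did not pass in edgeR (adjusted p = 0.177), while DESeq2 (0.0146) and limma voom (0.0481) called it. DESeq2 called 9.46% of tested genes higher and 4.82% lower, voom 5.96% and 1.26%, and edgeR 1.08% and 0.0558%. Unc5b (ENSMUSG00000020099.9), known from endothelial guidance, had 24.3, 57.9, 37.6 and 48.0 CPM in the cKO libraries, against 24.0, 27.3, 37.0 and 26.2 CPM in the cHet libraries. All but cKO7 exceeded the highest cHet library, by little in cKO14, and the log2 fold change was 0.55 (SE 0.27, adjusted p = 0.338, 95% interval −0.06 to 1.16). Unc5a (ENSMUSG00000025876.16), known mainly from neurons, was at the edge of detection. It had 0, 59, 30 and 0 counts in cKO7, cKO9, cKO14 and cKO15, against 38, 1, 43 and 97 in cHet8, cHet11, cHet12 and cHet14, so no difference could be resolved (log2 −0.92, SE 1.58, adjusted p = 0.826). Its log2 value was −2.09 without cKO9 and −0.20 without cHet14.

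The make-up of the UNC5 family is independent of library scaling. Per kilobase of exon, Unc5b held 50%, 71.6%, 47.3% and 49.2% of UNC5 transcripts in cKO7, cKO9, cKO14 and cKO15, against 65.2%, 87.4%, 79.8% and 74.4% in cHet8, cHet11, cHet12 and cHet14. Unc5d held 41.2%, 21.7%, 41.9% and 39.5% in the cKO libraries, against 21.9%, 9.79%, 13.7% and 9.71% in the cHet libraries. The groups overlapped in both shares, and cKO9 alone lay within the cHet range. The summed UNC5 level was 7.78 to 15.6 CPM per kilobase in cKO and 5 to 7.41 in cHet.

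**Figure D2:**
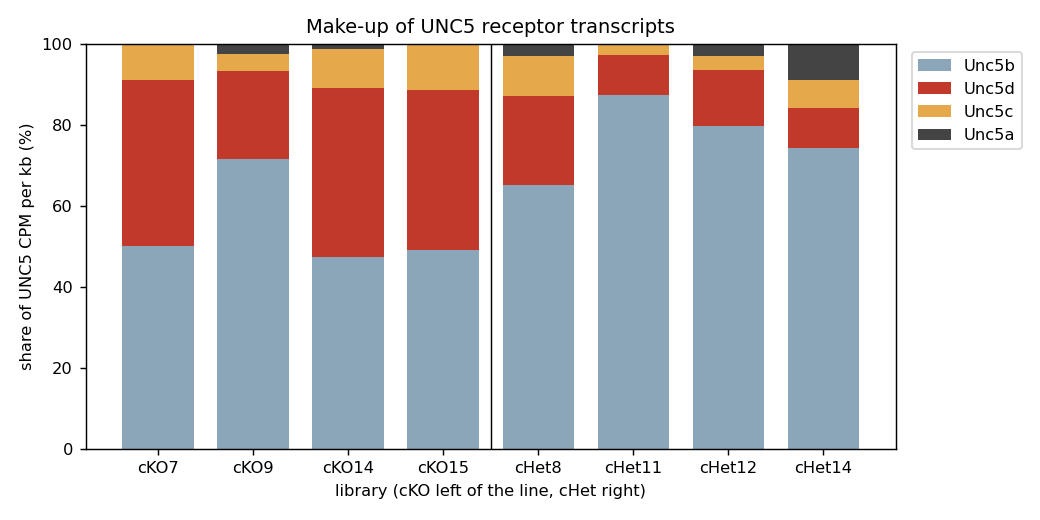
Share of each UNC5 receptor in the summed UNC5 level of a library (percent of CPM per kilobase of exon), 1 bar a library, cKO left of the line and cHet right. Unc5d takes 21.7% to 41.9% in cKO and 9.71% to 21.9% in cHet, and cKO9 lies within the cHet range.

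Levels were also compared between genes per kilobase of exon, with exon lengths from GENCODE M21. In cKO the order was Neo1 (30.8 ± 9.25 CPM per kilobase), Rgmb (19.7 ± 4.10), Unc5b (6.70 ± 2.30), Unc5d (4.37 ± 1.63), Ntn4 (2.51 ± 0.628), Rgma (2.49 ± 1.41), Ntn1 (1.38 ± 0.466), Unc5c (1.05 ± 0.556), Dcc (0.285 ± 0.181) and Unc5a (0.118 ± 0.152; SD, n = 4). In cHet Rgmb came first (20.7 ± 2.31), followed by Neo1 (7.85 ± 1.53), Unc5b (4.57 ± 0.917), Rgma (2.93 ± 0.458), Ntn4 (2.41 ± 0.942), Ntn1 (1.02 ± 0.403), Unc5d (0.834 ± 0.382), Unc5c (0.345 ± 0.190), Dcc (0.291 ± 0.178) and Unc5a (0.225 ± 0.207). In cKO, means ± SD overlapped between all neighbours in this order except Rgmb with Unc5b and Unc5c with Dcc. In cHet, they overlapped for Rgma with Ntn4, Ntn1 with Unc5d, Unc5d with Unc5c, Unc5c with Dcc, and Dcc with Unc5a, and did not for the other 4 pairs of neighbours. The annotated exons of Unc5c add up to 19135 bases, the longest of the 10, so its level per kilobase rests most on which exons were counted.

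Neo1, Unc5c and Unc5d shared their extremes. In each of these 3 genes cKO9 was the lowest and cKO15 the highest cKO library, and cHet11 the lowest and cHet8 the highest cHet library. The mesenchyme marker sums had the same extremes in cKO (13700 CPM in cKO9, 26900 in cKO15) and the same lowest cHet library (3780 CPM in cHet11). With the mean log2 CPM of the same markers in place of the sum, cHet8 was also the highest cHet library (8.56). On that scale cHet8 lay above cKO9 (8.38), so the groups overlapped. Where the groups came closest in the sums, cKO9 had 13700 CPM, against 12200 in cHet12 and 11600 in cHet8. There Neo1 stood at 204 CPM in cKO9, against 60.5 in cHet12 and 87.0 in cHet8, Unc5d at 25.8 against 9.32 and 11.9, and Unc5c at 10.5 against 5.10 and 11.2. These libraries were not alike in papilla markers, which summed to 2730 CPM in cKO9, 1180 in cHet12 and 1300 in cHet8.

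A ratio to the mesenchyme sum, formed after these values had been seen, ordered the genes differently. Per 1000 mesenchyme CPM, Unc5d had 1.78, 1.88, 2.46 and 2.11 CPM in cKO7, cKO9, cKO14 and cKO15, against 1.02, 1.19, 0.762 and 0.608 in cHet8, cHet11, cHet12 and cHet14, with no overlap. Neo1 had 13.6, 14.9, 13 and 14.3 in the cKO libraries, against 7.48, 15.2, 4.94 and 8.35 in the cHet libraries, so cHet11 reached the cKO level. Unc5c overlapped widely, at 0.767 to 1.26 in cKO and 0.416 to 0.961 in cHet. Col1a1, Col1a2 and Col3a1 made up 73.3% to 87.6% of the mesenchyme sum. The separation of Unc5d depended on this choice of sum. In cKO7 Unc5d had 29.5 CPM beside a papilla marker sum of 4410 CPM, against 11.9 beside 1300 in cHet8. Relative to papilla markers, Unc5d was thus lower in cKO7 than in cHet8, and the groups overlapped. Neo1 likewise had 225 CPM beside 4410 in cKO7, against 57.3 beside 483 in cHet11. With the mesenchyme score (mean log2 CPM of the 12 mesenchyme markers) as a covariate, the log2 fold change was 1.5 for Neo1. It was 1.44 for Unc5d (edgeR adjusted p = 0.215) and 0.29 for Unc5c (adjusted p = 0.978). In that fit 0 of the 9 genes other than Neo1 were called, and over all 21508 tested genes 12 higher and 4 lower. The score averaged 8.92 in cKO and 7.89 in cHet, so covariate and genotype cannot be fully told apart.

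**Figure D3:**
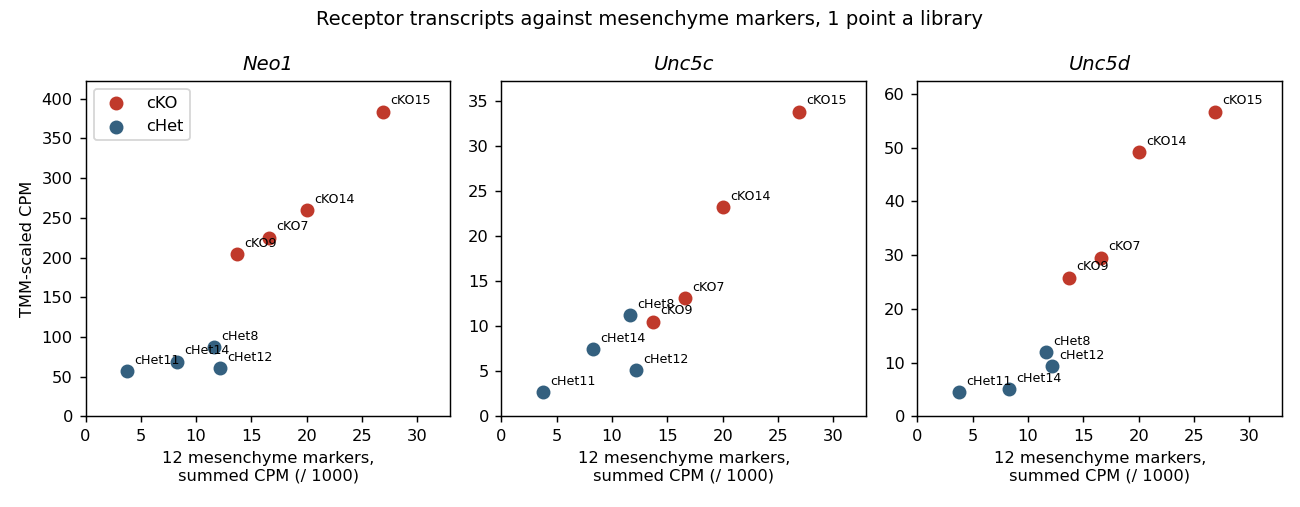
TMM-scaled CPM of Neo1, Unc5c and Unc5d (vertical axes) against the summed CPM of 12 mesenchyme markers (horizontal axes, in units of 1000 CPM), 1 point a library, cKO and cHet in different colours. Between cKO9 (13700 CPM) and cHet12 (12200 CPM), Neo1 differs as 204 against 60.5 CPM, while Unc5c in cKO9 lies below its level in cHet8. Papilla marker sums, not drawn, were 2730 CPM in cKO9, 1180 in cHet12 and 1300 in cHet8.

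Over 12529 genes averaging 5 CPM or more, the 5 whose log2 CPM followed Neo1 most closely over the 8 libraries were Chka, a choline kinase (Pearson r = 0.99), the scaffold gene Iqgap2 (0.99), the mitochondrial kinase gene Pdk2 (0.99), the ubiquitin ligase gene Rnf144b (0.99) and the kinesin-family gene Kif26b (0.99). With group means subtracted, they were Odr4 (0.99), Chka (0.98), the chromatin reader gene Phf14 (0.97), the septin gene Sept6 (0.97) and the splicing factor gene Srsf11 (0.97). Chka stood in both lists, at 169 ± 42.6 CPM in cKO and 72.1 ± 9.5 CPM in cHet (SD, n = 4 each). Of the set, Unc5d had r = 0.96 with Neo1 over all libraries and 0.75 with group means subtracted, Unc5c 0.89 and 0.90, and Rgmb −0.34 and −0.45. These 8 points share library depth and cell make-up, and the values are descriptions.

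The genes around these receptors were then counted in 3 lists with 53 tested genes of 55. In all, 4 were called higher in cKO and 0 lower (edgeR adjusted p under 0.05), beside 1.08% and 0.0558% of all tested genes, and the median log2 fold change was 0.19. Among the BMP receptors and Smads, to which RGM proteins and neogenin are linked, counted with the ligands Bmp2 and Bmp4, 3 of 13 were called higher and 0 lower (median 0.36). Acvr1, the type I BMP receptor ALK2, had 43.2, 40.5, 32.9 and 49.5 CPM in cKO7, cKO9, cKO14 and cKO15, against 20.0, 14.5, 23.6 and 17.3 CPM in cHet8, cHet11, cHet12 and cHet14. It rose in cKO with no overlap (log2 1.14, SE 0.19, adjusted p = 0.0405). Smad9, a transducer of BMP receptors, had 8.96, 4.90, 5.76 and 10.7 CPM in the cKO libraries, against 1.89, 0.569, 1.47 and 0.734 CPM in the cHet libraries (log2 2.70, SE 0.49, adjusted p = 0.0473). The call of Smad9 ended with RLE factors (adjusted p = 0.052) and without a filter (0.0519). With the mesenchyme score as covariate, the log2 values were 1.75 for Smad9 (adjusted p = 0.353) and 0.84 for Acvr1 (0.399), neither called. The ligand Bmp2 had 798, 442, 857 and 990 CPM in the cKO libraries, against 106, 25.6, 98.1 and 52.0 CPM in the cHet libraries. It rose most of the 53 genes (log2 3.45, SE 0.48, adjusted p = 0.0328) and stayed called with that covariate (2.28, adjusted p = 0.00981). All 3 lost their call when the olfactory score was the covariate (edgeR adjusted p of 0.319 to 0.367). Their log2 values there were 3.13 for Bmp2, 1.04 for Acvr1 and 2.55 for Smad9. That fit called 0 of 21508 tested genes higher and 0 lower, so the lost calls are not particular to these genes. Bmp4 had a log2 value of 0.04 (adjusted p = 0.979) and the type II receptor Bmpr2 one of 0.19 (adjusted p = 0.723).

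Among 28 cytoplasmic effectors and proteases 1 was called higher and 0 lower (median 0.15). This was Dapk1, a kinase known to act in death signalling by UNC5 receptors, with 80.9, 78.5, 95.7 and 88.1 CPM in cKO7, cKO9, cKO14 and cKO15, against 48.0, 57.4, 43.3 and 51.3 CPM in cHet8, cHet11, cHet12 and cHet14. The rise was 0.78 on the log2 scale (SE 0.12, adjusted p = 0.0376), and the call ended with the mesenchyme covariate (0.88, adjusted p = 0.212) and the olfactory covariate (0.74, adjusted p = 0.329). With mesenchyme scaling Dapk1 stood 0.71 above the median of all genes, which that scaling moved to −1.14, and so had a log2 value of −0.43. Maged1, which encodes an UNC5-binding adaptor, stood at 1120 ± 294 CPM in cKO and 501 ± 99.2 CPM in cHet without passing (log2 1.17, adjusted p = 0.0573). Psen2, a catalytic subunit of gamma-secretase, had a log2 value of −0.36 (adjusted p = 0.136). Each of the 4 calls was lost in at least 6 of the 8 fits that leave out 1 library. Bmp2 stayed called without cKO9 or cHet8, and Acvr1, Smad9 and Dapk1 without cKO9 alone. Papilla and mesenchyme marker sums stood higher in cKO beside these genes, as given above.

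Of the other ligands and receptors, 0 of 12 tested genes were called. An unadjusted p under 0.05 in edgeR was reached by 3 of the 12, beside 17.1% of all tested genes. Netrin genes outside the set included Ntn5, at 5.21 ± 1.77 CPM in cKO and 1.25 ± 0.708 CPM in cHet (log2 2.05, SE 0.52, adjusted p = 0.105), and Ntn3, at 14.6 ± 1.77 CPM in cKO and 5.97 ± 2.39 CPM in cHet (log2 1.29, SE 0.36, adjusted p = 0.126). DESeq2 and voom called both higher, as they did 9.46% and 5.96% of all tested genes. Neither overlapped between groups, and cKO lay above without overlap for 6.46% of all tested genes. The gene Sec1 shares 23.4% of the exon length of Ntn5 on the other strand, and Tbc1d24 1.74% of that of Ntn3 on the same strand, so these counts are uncertain. Flrt3, a membrane ligand of UNC5 receptors, stood at 195 ± 67.3 CPM in cKO and 89.4 ± 49.9 CPM in cHet (log2 1.13, adjusted p = 0.261).

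**Figure D4:**
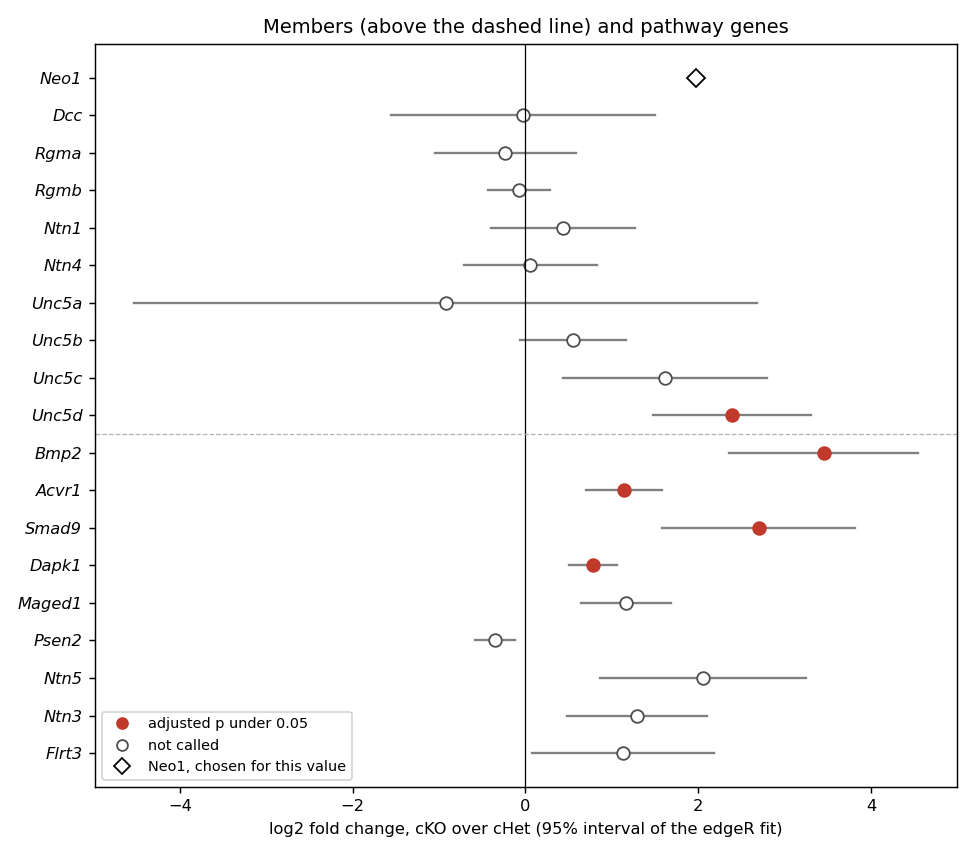
Log2 fold change of cKO over cHet for the 10 genes (above the dashed line) and for the 3 genes of each pathway list with the smallest p, with 95% intervals of the edgeR fit (none for Neo1, which was chosen for this value). Filled points mark an adjusted p under 0.05: Unc5d, Bmp2, Acvr1, Smad9 and Dapk1.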

How the data were processed

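The authors deposited raw read counts, whole numbers for each Ensembl gene. Per the submitters' processing notes, reads passed through Trim Galore and STAR, with the builds listed as GRCm39 and mm39. No counting tool, annotation or version is named in the sources used here. Column names give the group but match no sample title, so columns were assigned to groups only. The labels do not say whether libraries came from separate animals, so p-values measure the spread between libraries, which may be technical. Identifiers were matched without version to a gene name table (52073 of 56748 matched), and the highest-count identifier stood for a symbol. Hjv was found under its older symbol.

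CPM were scaled with TMM factors. Groups were compared with edgeR 4.0.16 (R 4.3.3), quasi-likelihood F test, default filter (21508 genes kept), genotype as the sole term, two-sided, Benjamini-Hochberg adjusted over all tested genes, called under 0.05. A standard error here is the absolute log2 fold change over the root of its F value, an approximation. DESeq2 1.42.0 and limma 3.58.1 (voom with quality weights) were alternatives. Depth was similar in all libraries, and the common coefficient of biological variation came to 0.553. A floor of 3 counts covers counting error only. Members and lists were chosen with earlier results of these data known. From each pathway list every called gene was named, and otherwise those with the smallest p up to 3. Bmp4, Bmpr2 and Hjv were named after their values were seen. Exon lengths and overlaps came from GENCODE M21 (GRCm38) and no coordinates of it were used.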

Additional observations from a re-analysis of the deposited data

Results flagged for a closer look

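Rgma in cHet11, at 20.0 CPM, lay apart from the other cHet libraries, which had 14.5, 15.0 and 15.4 CPM. It was the only one of 20 gene and group combinations in which 1 library's gap to its nearest neighbour, as a fraction of the group's range (0.849), passed Dixon's 95% critical value for 4 samples, and chance gives about 1 such combination in 20.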

How the results depend on the processing

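The counts depended on the fit. Over all genes, calls higher and lower in cKO were 232 and 12 in the report's fit, 1709 and 871 with DESeq2, 1281 and 271 with voom, 704 and 62 at an adjusted p under 0.10, 12 and 4 with the mesenchyme score as covariate, 0 and 0 with the olfactory score as covariate (1950 genes at an unadjusted p under 0.05 in edgeR), and 5 and 2 with mesenchyme scaling. Without a filter 5 genes were lower. Leaving out 1 library gave 0 to 816 higher and 0 to 144 lower genes (816 and 144 without cKO9, and 0 higher without cKO14, cHet12 or cHet14, with 2934, 3352 and 3022 genes at an unadjusted p under 0.05), 0 to 2 members higher (Neo1 counted, here and below) and 0 to 5 pathway genes higher, with 0 members and 0 pathway genes lower. Members called higher numbered 0 with either covariate and with mesenchyme scaling. Pathway genes called higher numbered 9 with DESeq2 and 9 with voom (3 and 1 lower), 1 with the mesenchyme covariate, 0 with the olfactory covariate and 1 with mesenchyme scaling. Higher calls made up 95.1% of all calls in the report's fit, 66.2% with DESeq2, 82.5% with voom, 75% with the mesenchyme covariate and 71.4% with mesenchyme scaling. The causes were not tested.

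Some signs turned. With the mesenchyme covariate the log2 values were 0.76 for Dcc, 0.27 for Rgma, 0.20 for Rgmb, −0.16 for Ntn4 and −0.054 for Flrt3. With the olfactory covariate they were 0.067 for Rgma and 0.082 for Rgmb. Mesenchyme scaling gave −0.54 for Ntn1, −1.11 for Ntn4, −0.52 for Unc5b and −0.43 for Dapk1, while it moved the median of all genes to −1.14. Relative to that median none of these 4 turned, with Ntn1 at 0.60, Ntn4 at 0.027, Unc5b at 0.62 and Dapk1 at 0.71. Neo1 then stood at 1.98, Unc5d at 2.52 and Unc5c at 1.74. Subtracting the median takes out most of the scaling, so values near those of the report's fit follow by construction. They do not test the scaling. Under the scaling itself, the log2 values were 0.84 for Neo1, 1.38 for Unc5d (edgeR adjusted p = 0.0929) and 0.60 for Unc5c (adjusted p = 0.284). Voom gave 0.042 for Dcc. Leaving out 1 library gave −0.34 to 0.45 for Dcc and −0.15 to 0.31 for Ntn4. Unc5a, Unc5c and Unc5d kept their sign in every alternative that tested them. Neo1 did too, but it was chosen for its rise in these libraries, so this is no test of it. Depth limits Unc5a, which the filter of 1 CPM in 4 libraries removed. No paired analysis was possible because the columns carry no replicate numbers of the labels and the groups share fewer than 2 column numbers.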
